A study of Homo sapiens with 12 samples.

Results

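NEAT1 is a long noncoding RNA of the nucleus, and protein-protected sites along it were mapped in the established embryonic kidney line HEK293T. The sites came from protein interaction profile sequencing, in which formaldehyde-cross-linked lysate is digested with a ribonuclease and the RNA shielded by protein is sequenced. The 12 libraries form 4 groups of 3 replicates: footprints made with ssRNase (RNase ONE, specific for unpaired RNA), their digestion controls, footprints made with dsRNase (RNase V1, specific for paired RNA), and their digestion controls. All groups share the line and the cross-linking, and in the controls protein was taken off before the nuclease was added. Each footprint library was set by the authors against the control of its own nuclease and replicate, which gave 6 replicate lists and 3 merged lists of protected sites.

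NEAT1 sites were taken as those on the plus strand of chromosome 11 whose midpoint lay from 65190269 to 65213011 (hg19), the 22743 nt of the long form. The gene was chosen by the large share of protected bases its region held in these lists, so that this level is a description and carries no test. The rule found 414 ssRNase sites and 342 dsRNase sites, 756 of the 513381 sites of the 6 replicate lists. The merged lists held 99 sites for ssRNase, 184 for dsRNase and 89 for both nucleases together. Positions below are counted in nt from the first base of that interval.

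NEAT1 RNA is the scaffold of paraspeckles, nuclear bodies that gather RNA-binding proteins such as NONO and SFPQ. The gene makes a short, polyadenylated form and a long form that share their 5′ end. The long form is needed for paraspeckles to assemble, and its middle is known for holding the parts that drive assembly. Its 3′ end is not polyadenylated. It is cut by RNase P upstream of a tRNA-like structure and is stabilised by a triple helix between U-rich tracts and an A-rich tract at the very end.

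Both ends of the long form are shown. Among windows of 1000 nt, coverage with the 2 nucleases differed most in the first, and the 3′ end carries the triple helix. The first 100 nt of the hg19 interval were protected over 79%, 9% and 69% in ssRNase replicates 1, 2 and 3. They held no protected nt in any dsRNase list. The sequences are from the GENCODE release 29 transcript of the long form (GRCh38, chromosome 11, plus strand), which has the same length of 22743 nt as the hg19 interval. The deposited sites belong to another build and were not placed on this sequence. The first 100 nt are 47.0% G, against 23.6% G in the whole transcript, and capitals mark the runs of at least 4 G. In the last 100 nt capitals mark the U-rich tracts (written with T) and the final A-rich tract.
NEAT1 long form, first 100 nt: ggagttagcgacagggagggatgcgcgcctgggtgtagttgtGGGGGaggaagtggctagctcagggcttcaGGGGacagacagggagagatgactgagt
NEAT1 long form, last 100 nt: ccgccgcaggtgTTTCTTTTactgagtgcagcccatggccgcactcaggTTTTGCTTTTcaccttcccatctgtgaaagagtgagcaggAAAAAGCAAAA

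The replicate lists differed in length, with 209922, 57481 and 172079 sites for ssRNase and 23925, 28413 and 21561 sites for dsRNase. They give positions and a score but no read counts, so that the depth behind each site is unknown. The ssRNase replicate 2 list was the shortest of its nuclease and covered the least of NEAT1 among them. Nothing in the labels ties the replicates to different cultures. The p-values therefore speak only of the spread among these lists, and that spread may be technical.

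More of NEAT1 lay inside protected sites with ssRNase than with dsRNase. Sites covered 85.2%, 47.9% and 67.5% of the transcript in ssRNase replicates 1, 2 and 3, against 11.2%, 19.5% and 25.0% in dsRNase replicates 1, 2 and 3. The mean was 15214 ± 4243 nt with ssRNase and 4223 ± 1576 nt with dsRNase (SD, n = 3 lists each), a ratio of 3.602. The 2 nucleases did not overlap, with ssRNase higher in all 3 lists. The two-sided exact permutation test gave p = 0.1, and with 3 lists a side it can give no smaller value. The ssRNase lists were also longer, with a mean of 146494 sites against 24633, a ratio of 5.95, and protected nt are not scaled to list length. The lists do not give the amount of NEAT1 RNA. For the level within either nuclease, more RNA, more cells with it and more protection of each RNA thus cannot be told apart.

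**Figure D1:**
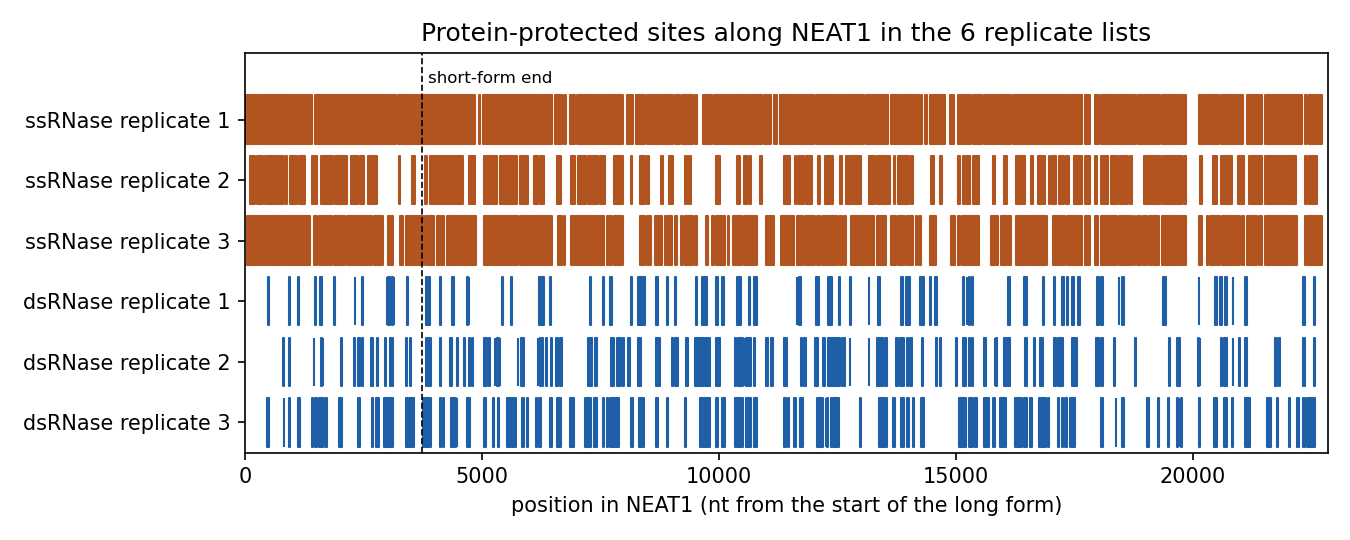
Protected sites along NEAT1 in each replicate list, with the position in nt from the start of the long form on the x axis, ssRNase lists above dsRNase lists and bars for sites. The ssRNase bars cover 47.9% to 85.2% of the transcript and the dsRNase bars 11.2% to 25.0%, and the first dsRNase bar starts at nt 462.

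The number of sites did not separate the nucleases, but their length did. NEAT1 held 117, 137 and 160 sites with ssRNase and 82, 125 and 135 sites with dsRNase, which overlap (two-sided exact permutation p = 0.4). The median NEAT1 site was 108, 58 and 69 nt long in the ssRNase lists and 29, 32 and 39 nt in the dsRNase lists. Over whole lists the medians were 43, 44 and 42 nt with ssRNase and 33, 33 and 34 nt with dsRNase, so that NEAT1 sites were longer than the list median in all 3 ssRNase lists and in 1 dsRNase list. The longest NEAT1 sites were of 947, 277 and 550 nt with ssRNase and of 94, 148 and 110 nt with dsRNase.

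The authors' score, which served here for ranks inside each list and nothing else, was higher for NEAT1 sites than for most sites in the ssRNase lists and near the middle in the dsRNase lists. The median NEAT1 site lay at percentile 95.4, 76.9 and 88.6 of its list with ssRNase and at 44.5, 54.2 and 66.7 with dsRNase. The best-scoring NEAT1 site ranked 230th, 327th and 153rd of the ssRNase lists and 639th, 334th and 748th of the dsRNase lists. In the 3 dsRNase lists that best site lay in the same part of the middle, at nt 13954 to 14019, 13361 to 13410 and 13832 to 13908. In the ssRNase lists it lay far apart, at nt 2692 to 2950, 4263 to 4410 and 21528 to 22077.

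As a share of all protected bases NEAT1 was large in every list. It held 1901, 3739 and 1896 of each 1000000 site bases in ssRNase replicates 1, 2 and 3, against 3096, 4537 and 7108 in dsRNase replicates 1, 2 and 3. The means were 2512 ± 1062 with ssRNase and 4914 ± 2033 with dsRNase (SD, n = 3 lists each), and the lists overlapped (difference -2401, ratio 0.511, two-sided exact permutation p = 0.2). Set against plus-strand site bases only, the share was 6156 ± 2957 with ssRNase and 18753 ± 8955 with dsRNase (SD, n = 3 lists each), a ratio of 0.328 without overlap (two-sided exact permutation p = 0.1). By number of sites in place of bases, NEAT1 had 1290.2 ± 965 per 1000000 with ssRNase and 4696 ± 1440.1 with dsRNase (SD, n = 3 lists each), a ratio of 0.275, also without overlap (two-sided exact permutation p = 0.1). With the 21561 best-scoring sites of each list the order turned, with 8046 ± 2147 for ssRNase and 5061 ± 1904 for dsRNase (SD, n = 3 lists each; p = 0.2, two-sided exact permutation test). Coverage in nt kept its order there, at 51.5% ± 18.3 for ssRNase and 17.4% ± 7.03 for dsRNase (SD, n = 3 lists each). This cut selects by score, and NEAT1 sites ranked higher by score in the ssRNase lists, so it changes more than list length. It kept 71, 82 and 83 of 117, 137 and 160 NEAT1 sites with ssRNase. With dsRNase it kept 79, 97 and 135 of 82, 125 and 135. How far the score sets the turned order was not tested.

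**Figure D2:**
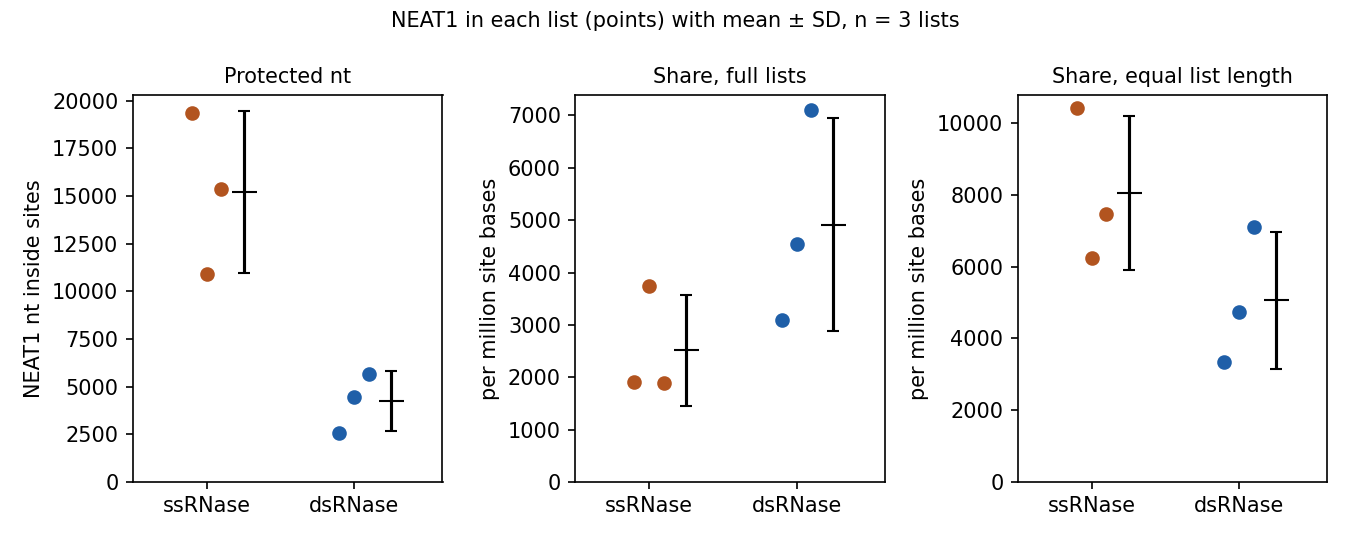
NEAT1 in each replicate list (points) with the mean and SD of 3 lists, as protected nt (left), per 1000000 site bases of the full lists (middle) and per 1000000 site bases with the 21561 best-scoring sites of each list (right). Protected nt do not overlap between nucleases, while the mean share is 2512 with ssRNase and 4914 with dsRNase in full lists, and 8046 with ssRNase and 5061 with dsRNase at equal list length.

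Few or no sites lay next to the long form or on its opposite strand. No list had a site on the opposite strand of the interval or in the 22743 nt downstream of it, and the nearest plus-strand site downstream lay at least 53509 nt away. The tRNA-like RNA that RNase P leaves behind would lie directly downstream. Without read counts, RNA that was absent and RNA that was present but unprotected cannot be told apart in these flanks. In the 22743 nt upstream the ssRNase lists held 5, 2 and 6 sites with 295, 107 and 275 nt, the nearest 9516 nt away, and the dsRNase lists held 0.

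The outermost sites of the 2 nucleases parted at both ends, more widely at the 5′ end. The first protected nt was 22, 92 and 29 in the ssRNase lists and 483, 804 and 462 in the dsRNase lists. Of the first 500 nt, 93.4%, 60.8% and 89.2% were protected with ssRNase and 2.80%, 0% and 5.60% with dsRNase. The last protected nt was 22716, 22622 and 22725 with ssRNase and 22574, 22576 and 22584 with dsRNase. All ssRNase lists thus began and ended closer to the transcript ends than all dsRNase lists. At the 3′ end this order rests in ssRNase replicate 2 on a site of 18 nt, at nt 22605 to 22622. The ssRNase lists also covered more of NEAT1, and whether that sets the order was not tested. Of the last 100 nt of the hg19 interval, protection covered 73.0%, 0% and 82.0% with ssRNase and 0% in each dsRNase list. Replicate 2 of ssRNase had no site there, so that this end was seen in 2 of 3 ssRNase lists.

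The short form was taken to end at position 65194000, so that 3732 nt are common to both forms. With ssRNase this part was protected over 94.3%, 52.9% and 77.7% of its nt, and the 19011 nt of the long form alone over 83.4%, 46.9% and 65.6%. With dsRNase the values were 5.89%, 8.39% and 20.02% for the common part and 12.3%, 21.7% and 25.9% for the long form alone. The common part thus had the higher coverage in all 3 ssRNase lists and the lower coverage in all 3 dsRNase lists. The common part minus the rest was 9.66 ± 3.26 percentage points with ssRNase and -8.54 ± 4.16 with dsRNase (SD, n = 3 lists each), a difference of 18.2 points (two-sided exact permutation p = 0.1, the smallest possible). Over all 6 lists the mean was 0.56 points (two-sided exact sign-flip permutation p = 0.969). With 21561 sites a list, ssRNase replicate 2 went the other way, at -4.69 points, while ssRNase replicates 1 and 3 stood at 20.9 and 3.56. In the better-scoring 50% of each list, ssRNase replicate 2 stood at -6.06 points, within the dsRNase lists, and the difference between nucleases was 12.2 points (two-sided exact permutation p = 0.3).

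**Figure D3:**
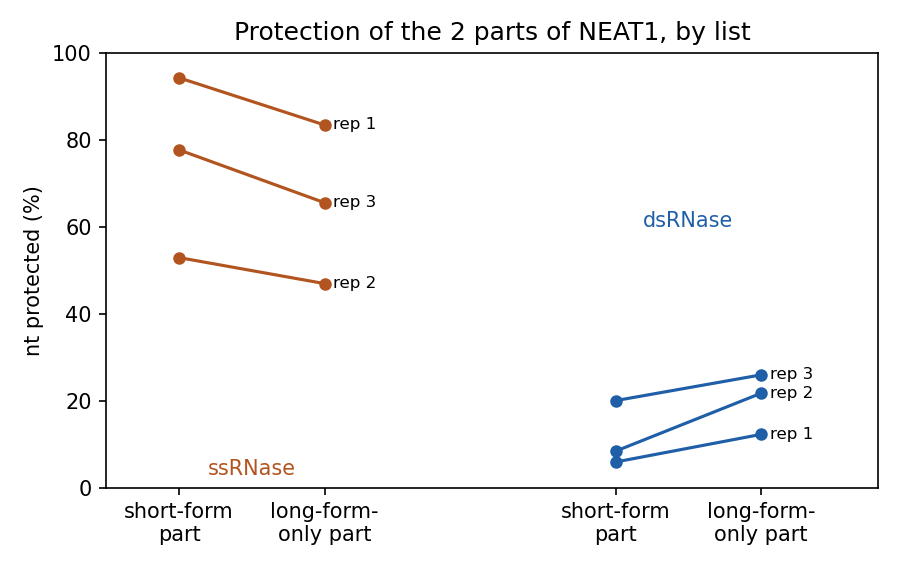
Percent of nt protected in the part common to both forms (left point of each line) and in the part of the long form alone (right point), with a line for each replicate list. The 3 ssRNase lines fall from left to right and the 3 dsRNase lines climb, with differences of 9.66 and -8.54 percentage points on average.

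The profile along the long form was described in 4 stretches. The common part had a mean coverage of 75.0% ± 20.8 with ssRNase and 11.4% ± 7.54 with dsRNase (SD, n = 3 lists each). From nt 3733 to 10000 the means were 64.8% ± 19.2 with ssRNase and 22.9% ± 8.24 with dsRNase, and after nt 10000 up to 17000, the middle of the transcript, 60.7% ± 22.5 with ssRNase and 22.4% ± 8.61 with dsRNase (SD, n = 3 lists each). After nt 17000 they were 71.4% ± 12.1 with ssRNase and 13.8% ± 3.87 with dsRNase (SD, n = 3 lists each). The ssRNase means were thus higher in the outer stretches and the dsRNase means in the inner ones, but not in every list: in ssRNase replicate 1 the last stretch was the lowest, at 82.8%, against 83.9% and 83.5% in the inner stretches. The ratio of ssRNase to dsRNase coverage was 6.56 in the common part, 2.83 and 2.71 in the next stretches and 5.17 at the 3′ end. Within the ssRNase lists the stretches differed by less than the lists did.

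In windows of 1000 nt, coverage did not overlap between the nucleases in 19 of 23 windows, always higher with ssRNase. How often this holds over all windows of the genome was not counted. Coverage is not scaled to list length, and the mean list had 146494 sites with ssRNase and 24633 with dsRNase. As a share of each list's site bases, 19 of the 23 windows leaned to dsRNase, as given below. Windows are numbered 1 to 23 from the 5′ end. The 4 that overlapped were windows 4, 10, 11 and 16, and in each of them ssRNase replicate 2 was at or below 31.4%. Window 1 differed most, with 86.1% ± 13.4 of its nt protected with ssRNase and 3.63% ± 1.31 with dsRNase (SD, n = 3 lists each). Window 10, from nt 9001 to 10000, differed least, with 46.0% ± 26.8 with ssRNase and 29.03% ± 14.7 with dsRNase (SD, n = 3 lists each). Window 15 had the lowest ssRNase mean, at 39.3%, and window 13 the highest dsRNase mean, at 30.2%.

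**Figure D4:**
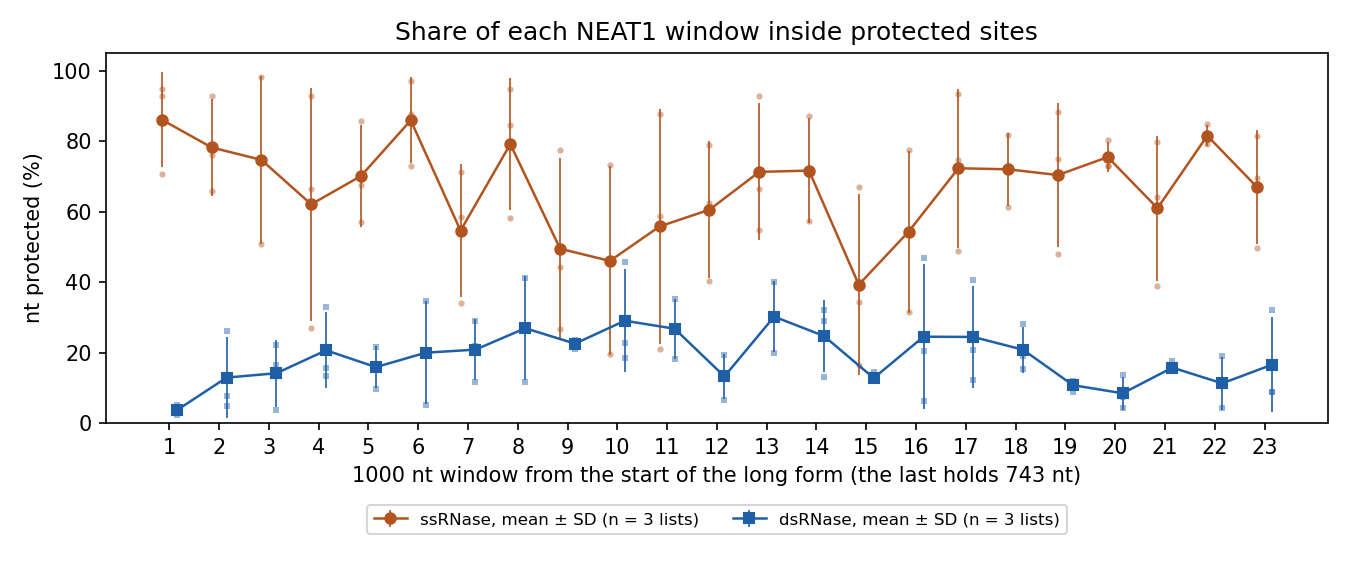
Percent of nt inside protected sites for each 1000 nt window of NEAT1 (x axis, from the start of the long form), with small points for replicate lists, and large points with bars for the mean and SD of 3 lists. The ssRNase means run from 39.3% to 86.1% and the dsRNase means from 3.63% to 30.2%, and the 2 means lie closest in window 10.

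To set these windows against the rest of the genome, the share of each list's site bases that a window held, per 1000000, was tested in 51614 windows of 1000 bp, each strand apart, that had a site in at least 3 lists. All 23 NEAT1 windows entered. Differences are in log2(share + 20), ssRNase minus dsRNase, and understate changes of low windows. The median NEAT1 difference was -0.89, against 0.26 over all windows, and 4 NEAT1 windows had a positive and 19 a negative difference. At a limma adjusted p below 0.05, 1 of 23 windows was higher with ssRNase, where 18.8% of all windows were, and 5 of 23 were higher with dsRNase, where 7.61% of all windows were. With shares scaled within each strand, 0 were higher with ssRNase, where 27.9% of all windows were, and 10 with dsRNase, where 7.44% were, at a median of -1.59 in NEAT1 against 0.48 over all windows. The 3 lists required could all be ssRNase lists, so the values over all windows depend on this filter. Without ssRNase replicate 1, 2 or 3, a window needed a dsRNase site to enter. The median over all windows was then -0.29, -0.21 and -0.30, against -0.71, -1.18 and -0.74 in NEAT1.

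The window higher with ssRNase was window 1, with 93.0, 242 and 115 bases per 1000000 in the ssRNase lists and 29.1, 35.7 and 62.6 in the dsRNase lists. No dsRNase list reached the lowest ssRNase list there (difference 1.38, SE 0.381, limma adjusted p = 0.0459). The next largest differences, 0.39 in window 20 and 0.20 in window 22, did not pass (limma adjusted p = 0.672 and 0.856). The smallest were those of windows 10, 11 and 9, which adjoin each other. Window 10 held 71.7, 66.9 and 56.0 bases per 1000000 with ssRNase and 225, 468 and 285 with dsRNase, without overlap (difference -1.97, SE 0.284, limma adjusted p = 0.0108). Window 11 differed by -1.73 (SE 0.27, limma adjusted p = 0.0129) and window 9 by -1.60 (SE 0.221, limma adjusted p = 0.0100). Windows 13 and 15 were also called higher with dsRNase, at differences of -1.42 and -1.17 (limma adjusted p = 0.0340 and 0.0151).

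These calls depended on the lists. Without ssRNase replicate 1, 2 or 3, limma called 0 NEAT1 windows. An unadjusted limma p below 0.05 was met by 5, 8 and 4 of 23, and by 15.8%, 11.6% and 14.1% of all windows. Few windows were called anywhere in these fits, 1.05%, 0.193% and 0.477% of all, so that 0 of 23 is near the background. All windows called in them were higher with dsRNase. Without dsRNase replicate 1 or 2 window 1 was no longer called (limma adjusted p = 0.0946 and 0.0886), and without dsRNase replicate 2 or 3 window 13 was not (limma adjusted p = 0.0723 and 0.0708). Windows 9, 10, 11 and 15 stayed called higher with dsRNase without dsRNase replicate 1, 2 or 3. In these fits 9.10%, 9.17% and 9.33% of all windows were higher with dsRNase. With the 21561 best-scoring sites of each list, a cut by score as said above, 6 NEAT1 windows were higher with ssRNase, where 26.5% of all windows were, and 0 higher with dsRNase, where 16.9% were. There 7 of 23 NEAT1 windows had an unadjusted limma p below 0.05, 6 leaning to ssRNase and 1 to dsRNase, where 49.2% of all windows did. The median NEAT1 difference was 0.59, against 0.29 over all windows. The 6 called higher with ssRNase were windows 1, 5, 18, 19, 20 and 22, and windows 5, 18 and 19 had negative differences with full lists. Windows 9, 10, 11 and 15 were not called at that list length (limma adjusted p = 0.0847, 0.321, 0.535 and 0.608). Over the 13 fits on 1000 bp windows, which share lists with the fit that singled these windows out, the difference ran from 0.77 to 2.88 in window 1 and from -2.76 to -1.01 in window 10.

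The positions protected were compared from list to list. Of the NEAT1 bases protected in a dsRNase list, 29.7% to 66.2% were protected in another dsRNase list, 2.10 to 2.88 times the share of NEAT1 that the other list covered. Between ssRNase lists it was 55.2% to 98.1%, or 1.13 to 1.32 times that share. This ratio is capped by the other list's coverage, so that the nucleases cannot be compared by it. Between the nucleases the ratio was 0.94 to 1.16, with a mean of 1.07, and the same cap applies. Of the dsRNase replicate 2 bases, 45.2% were protected in ssRNase replicate 2, which covered 47.9% of NEAT1. In every other pair of a dsRNase and an ssRNase list, the percentage was above the coverage of the other list. In ssRNase replicate 1, which covered 85.2%, it was 91.3%, 88.9% and 91.6% for dsRNase replicates 1, 2 and 3. Pairs share lists and neighbouring positions are not independent, so that these ratios carry no test.

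Of the 22743 nt, 9676 (42.5%) were protected in all 3 ssRNase lists and 987 (4.34%) in all 3 dsRNase lists. At least 2 lists protected 15883 nt with ssRNase and 3481 nt with dsRNase. Of these dsRNase positions 78.3% were among the ssRNase positions, which made up 69.8% of the transcript. No list protected 2075 nt (9.12%), and all 6 lists protected 484 nt (2.13%) in 22 separate runs. The part common to both forms held 16 of these 484 nt (3.31%) and makes up 16.4% of the transcript, while the middle, after nt 10000 up to 17000, held 218 (45.0%) and makes up 30.8%.

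The longest run protected in all 6 lists was 50 nt, at nt 10391 to 10440 (chr11:65200659-65200708). It lay within a site of 272, 71 and 192 nt in the ssRNase lists and of 68, 67 and 75 nt in the dsRNase lists, which began at nt 10388, 10391 and 10391. The dsRNase lists thus placed the start of this site within 3 nt of each other. The next runs were 39 nt at nt 18061 to 18099, 38 nt at 20683 to 20720, 30 nt at 8332 to 8361 and 30 nt at 13847 to 13876. The longest runs without a site in any list were 249 nt at nt 19864 to 20112, 111 nt at 14760 to 14870 and 96 nt at 17836 to 17931. Whether reads can be placed there was not tested.

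Some runs were protected with only 1 nuclease, and those named here were chosen after their values had been seen. All 3 ssRNase lists and no dsRNase list protected 5912 nt. The 3 longest such runs all lay near the 5′ end, with 153 nt at nt 938 to 1090, 141 nt at 661 to 801 and 120 nt at 92 to 211. All 3 dsRNase lists and no ssRNase list protected 118 nt in 6 runs. The longest was 42 nt at nt 21105 to 21146 (chr11:65211373-65211414), where the dsRNase sites were 43, 49 and 68 nt long and no ssRNase list had a site, although ssRNase covered 79.2% to 84.9% of that window of 1000 nt.

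In the list merged by the authors over both nucleases, 71 of the 89 NEAT1 sites joined sites of both nucleases, 17 came from ssRNase alone and 1 from dsRNase alone. All 6 replicate lists contributed to 34 of the 89 (38.2%), against 0.696% of the whole merged list. NEAT1 was chosen by its large share of protected bases in these same lists, so this contrast is a description and carries no test. How many sites of the whole merged list join both nucleases was not counted. A merged site spans whatever it joins, and longer sites join more lists by construction. The longest, of 1148 nt at nt 1540 to 2687, joined 39 replicate sites and was covered over 99.1%, 66.8% and 81.4% by the ssRNase lists and over 5.05%, 14.2% and 23.3% by the dsRNase lists. The others were 1004 nt at nt 5025 to 6028, 893 nt at 22 to 914, 778 nt at 21527 to 22304 and 771 nt at 16524 to 17294. The 893 nt site at the 5′ end was covered over 71.6% to 98.7% by ssRNase lists and over 1.57% to 4.03% by dsRNase lists, and dsRNase replicate 1 had no site in the 778 nt one.

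Among 40609 stranded windows of NEAT1 length with a site, NEAT1 ranked first by share in all 3 ssRNase lists and 6th, 2nd and 2nd in the dsRNase lists, as its choice by level would give. The windows most like it over the 6 lists, by Euclidean distance in log2(share + 20), were a chromosome X window, minus strand, 73036604 to 73059346 (distance 1.54), and windows of contig Un_gl000220, plus strand, from 99803 to 122545 (1.81) and from 145289 to 168031 (2.02). The chromosome X window held 1325, 2111 and 1158 bases per 1000000 with ssRNase and 5999, 4259 and 8127 with dsRNase, lower than NEAT1 in each ssRNase list. Genes in these windows were not looked up.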

How the data were processed

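The submitters' processing notes name cutadapt 0.9.5, TopHat2 2.0.9 and build hg19, without saying how each was used. Per the labels' protocols, library preparation included DSN normalization, whose effect on NEAT1 was not tested. The deposited lists hold site positions and a score per site that the authors made with CSAR (the list names give 5% as the false discovery rate). The scale of this score, the read filters and the handling of multiply mapping reads are unstated in the sources at hand. The files do not state how they count positions; a 1-based, inclusive reading was used because sites with equal start and end occur.

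NEAT1 members, stretches and windows were chosen with earlier results of these data known. A position counts as protected in a list when a site covers it. Lists were compared by two-sided exact permutation tests, ssRNase minus dsRNase. Stranded windows of 1000 bp, on a grid starting at the NEAT1 start, were tested genome-wide with limma 3.58.1 in R 4.3.3 (lmFit, eBayes) on log2(share + 20), the share being a window's site bases per 1000000 in its list, for windows with a site in at least 3 of 6 lists, with Benjamini-Hochberg adjustment over all windows and a threshold of 0.05. Named runs were the 5 longest in all 6 lists and the 3 longest in no list. Named windows were the 3 largest and 3 smallest differences and the 3 windows of NEAT1 length nearest to it, with the 5 longest merged sites. The code was tested on simulated data. Figures were drawn with matplotlib 3.10.9, and the remaining steps ran in Python 3.11.15 (scipy 1.17.1, pandas 2.3.3, numpy 2.4.6). Gene annotation and sequence at hand belong to GRCh38, so the genes of paraspeckle proteins, markers of the cell line and the sequence of sites were not analysed here.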

Additional observations from a re-analysis of the deposited data

Results flagged for a closer look

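Coverage of the part of NEAT1 common to both forms, relative to the rest of the long form, differed between the nucleases by 18.2 percentage points (ssRNase minus dsRNase). It stands here because the difference was positive in 3 of 3 ssRNase lists and negative in 3 of 3 dsRNase lists. The two-sided exact permutation test of it gave p = 0.1, the smallest that this test gives for 3 against 3 lists. The ssRNase lists were also longer than the dsRNase lists. With 21561 sites in every list the difference was 14.2 points, and ssRNase replicate 2 stood at -4.69 points. In the better-scoring 50% of each list the difference was 12.2 points, and the lists overlapped (two-sided exact permutation p = 0.3).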

How the results depend on the processing

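Protected NEAT1 nt kept their direction in all alternatives run, with a difference of 8907 to 13148 nt on leaving out 1 list. The share of site bases reversed at equal list length, which keeps the best-scoring sites (2985 per 1000000), and ran from -3310 to -1304 without 1 list. The common part minus the rest over 6 lists reversed at equal list length (-0.50 points) and ran from -1.76 to 3.34 without 1 list, while its difference between nucleases ran from 15.8 to 20.04 and was 12.2 in the better-scoring 50% of each list. NEAT1 windows called numbered 0 to 7 without 1 list, with 0 to 1 higher with ssRNase and 0 to 7 higher with dsRNase. Leaving out dsRNase replicate 1, 2 or 3 called 17.3%, 19.5% and 17.9% of all windows. Of all windows 8.18%, 10.4% and 8.52% were higher with ssRNase there, and 9.10%, 9.17% and 9.33% higher with dsRNase. Leaving out an ssRNase list called 0.193% to 1.05% of all windows. Scaling within strands called 10, of them 0 higher with ssRNase and 10 with dsRNase (27.9% and 7.44% of all windows). Windows of 10000 bp called 0 in either direction by limma, with 1 at an unadjusted p below 0.05 (33.5% of all windows called, 45.1% unadjusted). With a pseudocount of 100, or a site needed in 1 list, 0 were higher with ssRNase (8.20% and 4.53% of all windows). Higher with dsRNase were 5 and 4 of 23 NEAT1 windows there (6.32% and 1.77% of all windows). Equal list length gave 6 higher with ssRNase and 0 with dsRNase (26.5% and 16.9% of all windows). Positions protected with dsRNase and also with ssRNase were 92.9% for at least 1 list, 49.04% for all 3 lists and 59.6% at equal list length, against 78.3%, where ssRNase positions made up 88.3%, 42.5% and 51.8% of the transcript, against 69.8%. These shares move with that coverage; for the other results the cause was not tested. Same-numbered lists did not deviate together (correlations 0.00702, -0.0427 and -0.0333), so the numbers were not taken to pair lists. With the replicate block limma called 0 windows in either direction, with 11 of 23 at an unadjusted p below 0.05 (0 of 51614 windows called, 29.7% unadjusted), and the difference in protected nt stayed 10991 (exact sign-flip p = 0.25, the smallest for 3 pairs). Depth is unknown and sets no limit that can be stated.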
